A study of Mus musculus with 4 samples.

Results

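The genes described here are 10 negative regulators of mitogen-activated protein kinase (MAPK) signalling, namely the dual specificity phosphatase genes Dusp1, Dusp2, Dusp4, Dusp5, Dusp6 and Dusp10, the Sprouty genes Spry1 and Spry2, and the Sprouty-related genes Spred1 and Spred2. They were chosen by name, with earlier results of these data known, and are 10 of the 22558 genes in the deposited count table. They were measured by RNA sequencing in activated group 2 innate lymphoid cells (ILC2s) of the mouse lung, tissue-resident lymphocytes that release type 2 cytokines in response to the alarmin IL-33. The cells were sorted as CD45+, lineage-negative, ST2+ and CD127+ on day 4, after intranasal recombinant mouse IL-33 (0.5 µg) on 3 days, from mice 6 weeks of age. The 2 groups were WT C57BL/6 mice and ICAM-1 KO mice of the strain B6.129S4-Icam1tm1Jcgr/J, which carry a germline mutant allele of the adhesion molecule ICAM-1, with 2 libraries each. Both groups received IL-33, so neither holds unstimulated cells, and each library is a pool of 4 mice.

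Stimulated cells switch MAPK signalling off by making its inhibitors. Growth factor receptors, antigen receptors and the IL-33 receptor ST2 activate the kinases ERK, JNK and p38, and the transcription factors these kinases phosphorylate raise the genes of phosphatases that remove the activating phosphates again. Sprouty and Spred proteins act higher up, between receptor tyrosine kinases and the kinase cascade, so that the pathway is braked at several steps.

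The libraries held 24796148 to 28782471 counts. Icam1 itself had 2579 and 2630 counts in WT, against 2812 and 3453 under the ICAM-1 KO label. Its RNA was thus not lower in the latter (log2 fold change 0.33, adjusted p = 0.0745 by edgeR's quasi-likelihood test), and they are named here by their label, as KO-labelled libraries. Which part of the gene the allele alters is not given in the sources used here, and ICAM-1 protein was not analysed here. The correlation of log2 CPM was 0.966 within WT, 0.969 within the other group and 0.93 to 0.938 across them, over genes that are not independent of each other. ILC2 transcripts were abundant in all 4 libraries, with 10240 and 10730 summed normalized counts over 16 marker genes in WT and 8761 and 9048 in the KO-labelled libraries. Genes of other lung cells were also present and mostly higher under the ICAM-1 KO label. The endothelial genes summed to 283 and 278 in WT against 632 and 633, with 12 of 12 called higher. Macrophage and monocyte genes summed to 474 and 683 against 1591 and 2224, with 8 of 9 tested called higher. Chil3 alone supplied 211 and 423 against 1052 and 1423 of these sums. The paper cites its expression in IL-10-producing lung ILC2s, so that it need not come from other cells. The share of all tested genes called higher was 8.8%. Of these markers, none was at 0 in all libraries.

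Known signal-response elements were searched in the promoters of these genes. RefSeq (GRCm38.p6) promoter windows, from 250 bases before to 50 after the start, were found for 9 of the 10 genes, the exception being Dusp4. The cAMP response element (CRE) TGACGTCA, searched on both strands, lay in the window of Dusp1 alone among the 9, and in 1.79% of all 32851 windows. The CArG box, which serum response factor binds, lay in that of Dusp5 alone, as 2 adjoining copies at -82 to -73 and -72 to -63, and in 1.63% of all windows. The CRE core TGACG, which is contained in the full element, was in the windows of Dusp1, Dusp2, Dusp5 and Spred2 and in 20.8% of all. The ETS core CCGGAA was in that of Spry2 and in 14.9% of all, and the AP-1 site TGANTCA was in none of the 9 against 7.81% of all. The windows of Dusp6, Dusp10, Spry1 and Spred1 held none of the 5 elements. The window of Dusp10, at chr1:184034131-184034430, lies within the counted gene, which starts at 184013302, so that upstream start was not searched. The window of Spred1 ends at 117121120, before the start of the counted gene at 117121374. Such matches describe letters in a window, not bound sites. All 9 windows had a GC content above the median of all windows (57 to 72.3% against 52.7%). The shares over all windows are therefore not matched for base content. The 150 bases from -200 to -51 are printed for Dusp1 and Dusp5, whose windows held the 2 less common elements, and for Dusp2, the gene with the largest difference between groups, with the CRE, its cores and the CArG boxes on either strand in capitals. Dusp1 is on the minus strand at chr17:26508523-26508672, Dusp5 on the plus strand at chr19:53528945-53529094 and Dusp2 on the plus strand at chr2:127335959-127336108. The Dusp5 stretch also overlaps an exon of an antisense RNA, AC137853.2, and the CRE core of Dusp2 lies at +6 to +10, outside the printed stretch.
Dusp1: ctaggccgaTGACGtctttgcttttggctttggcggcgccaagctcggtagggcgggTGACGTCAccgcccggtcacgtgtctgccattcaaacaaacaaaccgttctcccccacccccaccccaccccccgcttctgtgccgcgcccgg
Dusp5: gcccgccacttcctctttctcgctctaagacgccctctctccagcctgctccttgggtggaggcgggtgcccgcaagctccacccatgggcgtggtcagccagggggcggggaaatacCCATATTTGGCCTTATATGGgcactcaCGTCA
Dusp2: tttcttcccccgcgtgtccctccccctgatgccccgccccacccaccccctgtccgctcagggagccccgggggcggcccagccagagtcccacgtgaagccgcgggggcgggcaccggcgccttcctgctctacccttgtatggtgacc

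All 10 genes were detected in every library and passed the limits on low values. Per length of exon, Dusp1 was the most abundant, with a median over the 4 libraries of 540 TPM (counts scaled by exon length and by the library's total, range 456 to 667), above 97.6% of tested genes. Dusp5 followed with a median of 348 TPM (331 to 389). The ranges of these genes did not overlap each other or those of the rest, and they supplied on average 40.1% and 25.9% of the summed TPM of all 10. Dusp4 (142 TPM, 98.1 to 158) and Dusp10 (135 TPM, 108 to 163) came next and overlapped in range. Spry1 (53.4 to 64.9 TPM), Dusp6 (50.1 to 71.8 TPM) and Dusp2 (34.8 to 68.6 TPM) formed the next tier, in which each overlapped the next. Spry2 (12.4 TPM, 9.15 to 16.8), Spred2 (7.37 TPM) and Spred1 (6.47 TPM) were lowest, and of these the ranges of the Spred genes overlapped. The nuclear phosphatase genes Dusp1 and Dusp5 thus stood above the Sprouty and Spred genes in every library.

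Of the 10 genes, 2 were called higher in the KO-labelled libraries, Dusp2 and Dusp10, and none was called lower (adjusted p under 0.05, edgeR's quasi-likelihood test). Over all 11711 genes tested, 8.8% were called higher, 4.97% lower and 13.8% in either direction. At an unadjusted p under 0.05, 3 of the 10 were higher and 2 lower, against 30.2% of all genes in either direction, and DESeq2 called 1 lower. None of the 10 reached both a call and a 2-fold difference, which 5.47% of all genes did (4.94% higher and 0.538% lower). The values of the groups did not overlap for 6 of the 10, 3 in each direction, close to the 59.5% of all genes (28.3% higher and 31.3% lower). The median log2 fold change of the 10 was -0.05, beside 0.01 over all genes tested.

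**Figure D1:**
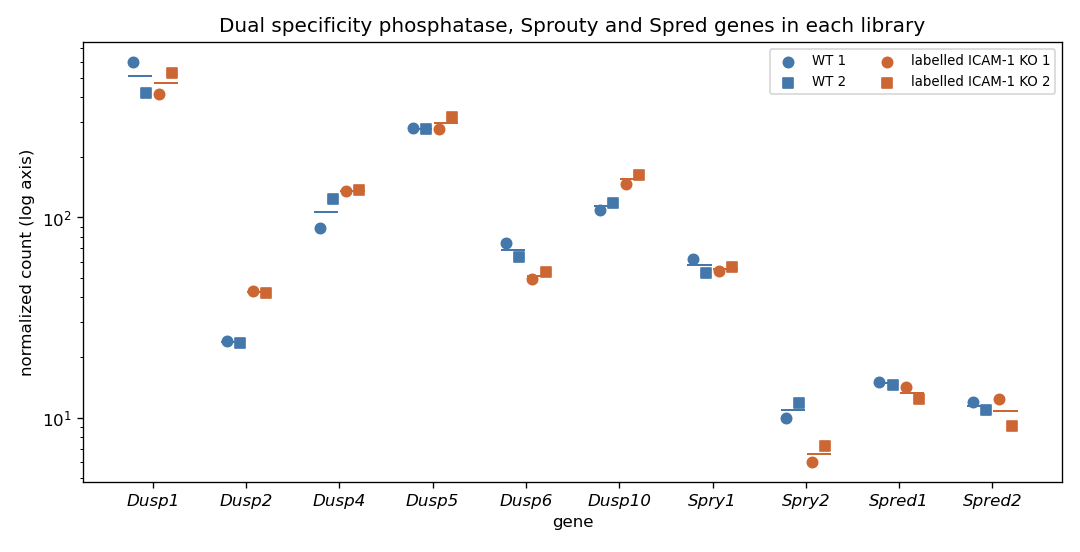
Authors' normalized count (log axis) of each gene in the 2 WT libraries (blue) and the 2 KO-labelled libraries (orange), with short bars at the group means. Dusp2 sits at 24.2 and 23.7 in WT and at 43.0 and 42.0 under the ICAM-1 KO label, while the points of Dusp1 interleave.

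Dusp2 encodes a nuclear phosphatase of activated leukocytes, also called PAC-1. It lies at chr2:127336159-127338376 (mm10, plus strand). Its normalized count was 24.2 and 23.7 in WT and 43.0 and 42.0 in the KO-labelled libraries. The replicates of each group were within 1.02-fold of each other, and the groups stood apart. The log2 fold change was 0.86 (SE 0.142, adjusted p = 0.00705), from 23.9 ± 0.363 (SD, n = 2) in WT to 42.5 ± 0.72 (SD, n = 2). The call held whichever library was left out, with adjusted p from 0.00912 to 0.0349. In bulk RNA, more cells of a type and more RNA per cell cannot be told apart. Summed normalized counts were higher under the same label for 8 T cell genes (519 and 593 against 776 and 933). They were also higher for 6 B cell genes (160 and 148 against 306 and 247). Of the T cell genes 4 were called higher, and Cd3g went the other way (113.5 and 127.2 against 81.1 and 107.0). The 5 eosinophil genes also went the other way in sum, with 95.2 and 68.2 against 24.1 and 41.5. The lineage stain of the sort included CD3ε, CD5 and TCRβ of T cells and CD45R of B cells, and the gate was lineage-negative. The part of T cells, B cells or other leukocytes in the difference of Dusp2 was not tested.

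Dusp10 encodes a phosphatase that acts mainly on JNK and p38. It lies at chr1:184013302-184075636 (plus strand). Its normalized count was 108.6 and 118.5 in WT and 147.7 and 163.4 under the ICAM-1 KO label, so that both WT libraries were below both others. The log2 fold change was 0.48 (SE 0.103, adjusted p = 0.0178). This call rested on most of the libraries, since the adjusted p was 0.09005 without WT 1, 0.0513 without WT 2 and 0.06995 without KO-labelled 2. It was also lost with no filter on low counts (adjusted p = 0.0858). A gene on the opposite strand, 1700056E22Rik, overlaps Dusp10 without sharing exons and had 56 to 116 counts.

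The other nuclear phosphatase genes did not pass the test. Dusp4, whose product acts on ERK and JNK and which lies at chr8:34807297-34819894, had 88.9 and 124 normalized counts in WT and 135 and 137 in the KO-labelled libraries. Both of the latter were above WT, but the WT libraries differed by 1.40-fold from each other. The log2 fold change was 0.38 (95% interval 0.05 to 0.71, adjusted p = 0.113), and without WT 2 it was 0.64 with an adjusted p of 0.0255. Dusp5, a nuclear phosphatase specific to ERK at chr19:53529109-53542431, had 278.3 and 277.8 in WT and 275.8 and 317.9 in the other group. The groups overlapped, and the log2 fold change was 0.12 (95% interval -0.10 to 0.34, adjusted p = 0.437).

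Dusp1 encodes the MAPK phosphatase MKP-1, which acts on p38, JNK and ERK and limits inflammatory cytokines. It lies on the minus strand at chr17:26505590-26508519. Its normalized count was 595.0 and 418.1 in WT and 414.4 and 523.9 in the KO-labelled libraries. The highest value came from WT 1 and the lowest from KO-labelled 1, the groups overlapped, and the WT libraries differed by 1.42-fold. The log2 fold change was -0.08 (95% interval -0.46 to 0.29, adjusted p = 0.785), and it turned positive without WT 1 (0.19) or without KO-labelled 1 (0.09).

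Dusp6 encodes the cytoplasmic phosphatase of ERK, a gene often read as a gauge of ERK activity. It lies at chr10:99263231-99267489. The normalized count was 74.3 and 63.5 in WT and 49.1 and 53.4 in the KO-labelled libraries. Both of the latter were below WT, opposite in sign to Dusp2 and Dusp10. The log2 fold change of -0.40 (SE 0.128, 95% interval -0.69 to -0.11) had an adjusted p of 0.0704. With DESeq2 it passed, at an adjusted p of 0.0390.

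**Figure D2:**
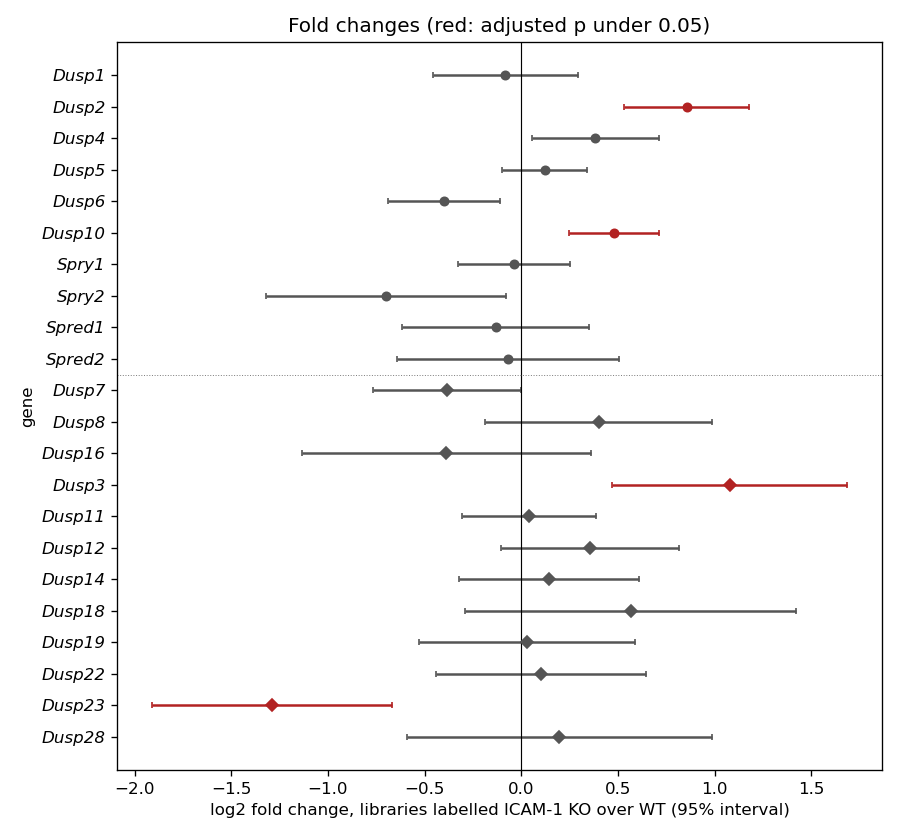
Log2 fold change of the KO-labelled libraries over WT with its 95% interval from edgeR, for the 10 genes (circles) and for the tested relatives and atypical phosphatases (diamonds). Of the 10, the intervals of Dusp2, Dusp10 and Dusp4 lie above 0 and those of Dusp6 and Spry2 below it, but Dusp2 and Dusp10 alone pass the adjusted test (red), beside Dusp3 and Dusp23 among the diamonds.

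Spry2, at chr14:105891947-105896819 on the minus strand, had the largest negative fold change of the 10. Sprouty proteins are membrane-associated inhibitors that are made in response to receptor tyrosine kinase signals. The normalized count of Spry2 was 9.97 and 11.9 in WT and 6.00 and 7.23 in the KO-labelled libraries, which were both lower. The log2 fold change was -0.70 (95% interval -1.32 to -0.08), but the adjusted p was 0.124. Spry1, at chr3:37639947-37644598, had 62.4 and 52.8 in WT and 53.8 and 56.3 in the other group. Both values of the latter lay between those of WT, and the log2 fold change was -0.04 (95% interval -0.33 to 0.25, adjusted p = 0.878). Gm42922, on the opposite strand with overlapping exons, had 5.17 to 22.0 counts.

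Spred proteins bring neurofibromin to the membrane, where it turns off Ras. Spred1, at chr2:117121374-117182279, had a normalized count of 15.2 and 14.5 in WT and 14.2 and 12.5 in the KO-labelled libraries. Spred2, at chr11:19924375-20024026, had 11.9 and 10.96 against 12.4 and 9.11. Both KO-labelled values of Spred1 were below both of WT, at the nearest 14.2 against 14.5, and the values of Spred2 overlapped. The log2 fold changes were -0.13 (95% interval -0.61 to 0.35, adjusted p = 0.727) for Spred1 and -0.07 (95% interval -0.64 to 0.51, adjusted p = 0.888) for Spred2. A 2-fold difference in either direction lies outside both intervals.

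No other tested member of the classical MAPK phosphatase, Sprouty and Spred families was called, while 2 atypical dual specificity phosphatases were. The share of all genes called in either direction was 13.8%. Of 7 relatives, 6 were in the count table and 3 passed the limits on low values, with 0 called by edgeR and by DESeq2 and 1 at an unadjusted p under 0.05. Dusp7, a cytoplasmic ERK phosphatase like Dusp6, had 31.8 and 28.0 normalized counts in WT and 24.2 and 20.8 in the KO-labelled libraries, with a log2 fold change of -0.38 (adjusted p = 0.165). Both values were below WT, as for Dusp6. Dusp8 and Dusp16, phosphatases of JNK and p38 like Dusp10, did not pass either, with a log2 fold change of 0.40 for Dusp8 (adjusted p = 0.336) and of -0.39 for Dusp16 (adjusted p = 0.47), whose groups overlapped. Spry4 had 28 to 110 counts per library, Dusp9 20 to 48 and Spred3 11 to 22. Of 9 atypical phosphatases tested, Dusp3 was higher (6.34 and 5.26 against 11.7 and 12.2, log2 fold change 1.08, adjusted p = 0.032) and Dusp23 lower (16.4 and 19.2 against 5.52 and 8.73, log2 fold change -1.29, adjusted p = 0.0179). Whichever library was left out, Dusp3 lost its call, with adjusted p of 0.0614 to 0.124. Dusp23 kept it without KO-labelled 2 alone (adjusted p = 0.00293), and its adjusted p without WT 1, WT 2 or KO-labelled 1 was 0.05404 to 0.08946.

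Dusp1, Dusp5 and Spry1 differed from the called genes in which libraries were high. By normalized count, all of them had their highest values in WT 1 and KO-labelled 2, 1 library of each group. For Dusp5 this was a near tie, as WT 1, WT 2 and KO-labelled 1 had 278.3, 277.8 and 275.8. By TPM, Dusp5 was highest in KO-labelled 2 (389) and KO-labelled 1 (356). Spry1 was highest by TPM in WT 1 (64.9) and KO-labelled 1 (59.1, beside 58.6 in KO-labelled 2). Only Dusp1 had WT 1 and KO-labelled 2 on top by both measures. Over all genes tested, 10% had WT 1 and KO-labelled 2 on top by normalized count. Of 16 genes listed as responding to tissue dissociation or as immediate early genes, 9 did (56.2%), as did 5 of 13 ERK target genes (38.5%). The 5 were Fos, Junb, Ier2, Fosl1 and Phlda1, of which Fos, Junb and Ier2 are in both lists and Fosl1 and Phlda1 are named after their values were seen. Junb, a subunit of AP-1, had 2121 normalized counts in WT 1, 1725 in WT 2, 1502 in KO-labelled 1 and 1783 in KO-labelled 2. Nr4a1, an orphan nuclear receptor gene, had 605, 476, 528 and 590 in the same order. Klf6 had 477, 344, 335 and 379, and Fos had 497, 308, 323 and 367. The other 5 of the 9 genes were Ier2, Fosb, Jun, Jund and Zfp36, of which all but Ier2 are named after their values were seen. By TPM, Jun was instead highest in KO-labelled 2 (386) and KO-labelled 1 (335), beside 323 in WT 1. The lungs were digested at 37 °C for 1 h before sorting, and the part of that step in these values was not tested. With 4 libraries no correlation was computed.

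**Figure D3:**
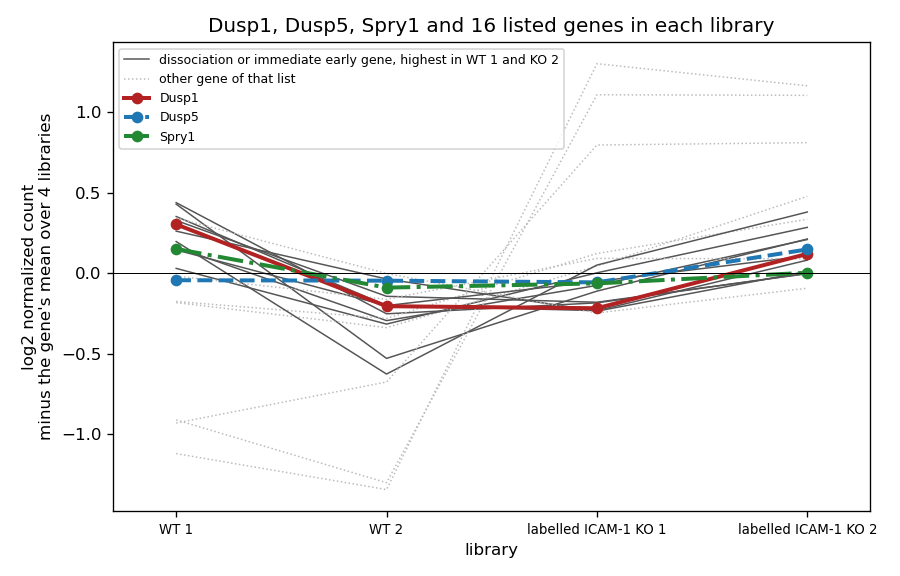
Log2 normalized count minus the gene's mean over the 4 libraries, for Dusp1, Dusp5 and Spry1 (thick lines) and the 16 listed genes of the dissociation and immediate early response (thin lines, solid for the 9 that are highest in WT 1 and KO-labelled 2). Dusp1 runs with the solid lines, high in 1 library of each group, and the 3 dotted lines that rise by more than 1 are Hspa1a, Hspa1b and Btg2.

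Of 22 genes of the Ras-ERK cascade, all tested, 1 was called higher and 1 lower, beside 13.8% of all genes called in either direction, and the median log2 fold change was 0.06. Map3k8, which encodes the kinase Tpl2 that activates MEK downstream of Toll-like and IL-1 family receptors, fell from 120 and 127 to 74.6 and 71.8 (log2 fold change -0.73, SE 0.0991, adjusted p = 0.00306). It kept the call whichever library was left out. Gab2, an adaptor that links receptors to Ras, rose from 5.61 and 5.003 to 13.1 and 9.27 (log2 fold change 1.10, adjusted p = 0.0427), and its call was lost without WT 1 (adjusted p = 0.110), WT 2 (0.149) or KO-labelled 1 (0.216). Of 15 kinase genes of the JNK and p38 pathways tested, 2 were called, a share near that of all genes. Map3k1 was higher (22.2 and 25.8 against 41.2 and 42.1, log2 fold change 0.82, adjusted p = 0.0106) and Mapkapk3, a kinase activated by p38, was lower (350 and 365 against 253 and 272, log2 fold change -0.42, adjusted p = 0.0158). Map3k1 lost its call without WT 1 (adjusted p = 0.0553), and Mapkapk3 without WT 1, WT 2 or KO-labelled 1 (0.0573 to 0.0805).

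Among 14 other inhibitors of the pathway that were tested, 3 were called higher and 1 lower, beside 8.8% and 4.97% of all genes. Their median log2 fold change was 0.25. Rasa3, which encodes a GTPase activating protein of Ras and Rap1, had 46.4 and 46.3 normalized counts in WT and 98.1 and 95.3 in the KO-labelled libraries, a log2 fold change of 1.09 (SE 0.107, adjusted p = 0.000703). Like Dusp2, it kept the call whichever library was left out. Ptpn7, a tyrosine phosphatase of ERK and p38 in blood cells, rose by 0.39 on the log2 scale (adjusted p = 0.0444). The ubiquitin ligase gene Cblb rose by 0.46 (adjusted p = 0.0488), and Pebp1 fell by 0.32 (adjusted p = 0.0358). Cblb and Pebp1 lost their calls whichever library was left out, with adjusted p of 0.0685 to 0.184 and 0.102 to 0.124, and Ptpn7 lost its call without WT 2 (0.194) or KO-labelled 1 (0.0901).

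Of 13 tested genes that ERK signalling is known to raise, 2 were called higher and 1 lower, beside 8.8% and 4.97% of all genes, with a median log2 fold change of 0.10. Egr1 had 143 and 128 normalized counts in WT and 167 and 226 in the KO-labelled libraries (log2 fold change 0.56, adjusted p = 0.0342), and Ier3 had 43.4 and 40.3 against 53.4 and 61.9 (0.49, adjusted p = 0.0428). Myc went the other way, from 88.0 and 78.7 to 55.7 and 63.8 (log2 fold change -0.45, adjusted p = 0.0417). Egr1 and Ier3 kept their calls without KO-labelled 1 alone and Myc without KO-labelled 2 alone, with adjusted p of 0.0748 to 0.226 for these genes without another library. Of 12 genes of receptor tyrosine kinases tested, which act above Sprouty, 7 were called higher by at least 2-fold and none lower. The shares of all genes called at least 2-fold higher and lower were 4.94% and 0.538%. The 7 were Kdr, Flt1, Flt4, Tek, Tie1, Fgfr2 and Csf1r, of which most mark endothelium or macrophages, and the part of those cells was not tested. Fgfr2 lost its call without WT 1 (adjusted p = 0.0627) or WT 2 (0.0583), and Flt1 without WT 1 (0.0692), WT 2 (0.0662) or KO-labelled 2 (0.0560). Kit, the receptor of stem cell factor, had 243 and 205 in WT and 218 and 196 in the other group (log2 fold change -0.09, adjusted p = 0.631).

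**Figure D4:**
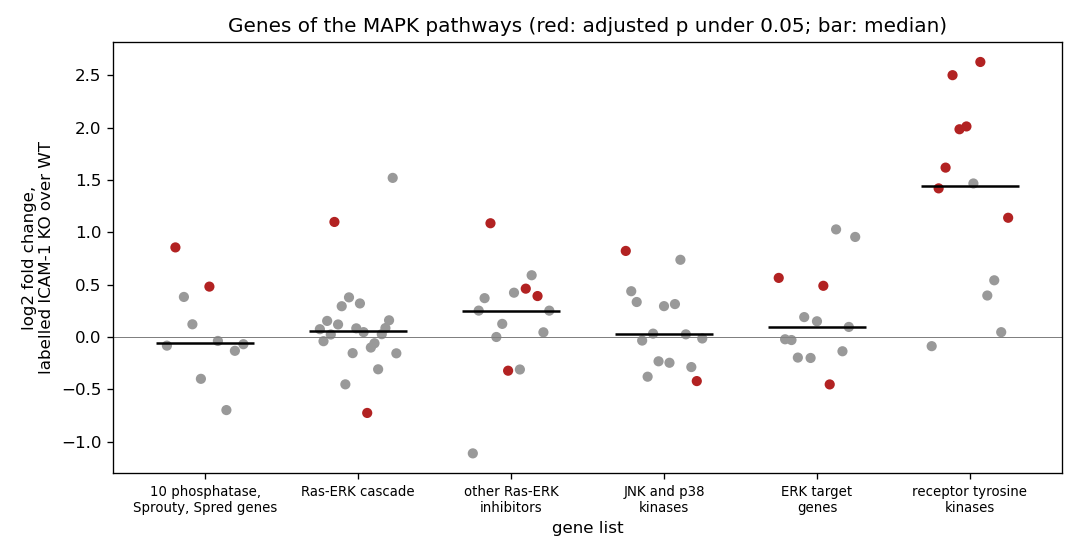
Log2 fold change of the KO-labelled libraries over WT for each tested gene of 6 lists, with called genes in red and a bar at each median. The medians of the 10 genes, the Ras-ERK cascade and the JNK and p38 kinases lie within 0.1 of 0, and that of the receptor tyrosine kinases at 1.44.

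The genes nearest in pattern to the called ones were found from the distance between centred log2 normalized counts over the 4 libraries. Nearest to Dusp2 were Utrn, the utrophin gene (61.2, 59.9, 104 and 108 in WT 1, WT 2, KO-labelled 1 and KO-labelled 2, distance 0.0612), and Evi2a (21.2, 20.0, 35.8 and 36.7, distance 0.0628). Both were called higher, at adjusted p of 0.0019 and 0.0102 by edgeR's test. They were picked by the same values that were tested, so these calls largely follow from the choice and are no separate result. Nearest to Dusp10 were Rfxank, a subunit gene of the complex that drives MHC class II genes (11.1, 12.2, 15.0 and 16.7, distance 0.0128), and Ubox5 (8.87, 9.70, 11.8 and 13.4, distance 0.0277). Their log2 fold changes were 0.48 and 0.47, but with fewer counts the adjusted p was 0.182 and 0.224. Over 4 libraries many genes can lie this near.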

How the data were processed

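The labels gave each library's genotype and replicate number. The authors made cDNA from 10 ng RNA with a SMARTer low-input kit, aligned reads with STAR to mm10 and GENCODE M20, and deposited expected counts estimated by the E/M method of Partek. The authors also deposited a normalized signal, called normalized count here, which equals the count plus 1, multiplied by 1 upper quartile factor per library. Strand use in counting is not given in the sources used here.

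Expected counts were rounded and tested with edgeR 4.0.16 (quasi-likelihood, upper quartile factors, R 4.3.3), over the 11711 genes whose normalized counts averaged 1 or more and summed to 10 or more, with Benjamini-Hochberg adjustment. The libraries of a group are separate pools of mice. The p-values set the difference between groups against the spread between such pools, which edgeR estimates with information shared across genes. TPM used GENCODE M21 exon lengths. DESeq2 1.42.0 and limma 3.58.1 were alternatives. The genes and lists were chosen with earlier results of these data known. Named beside the 10 genes, Icam1 and their relatives were the 3 most abundant and the 3 called genes of largest change in each pathway list. The 3 most abundant genes of each cell type list and the 2 nearest patterns were also named. Kdr, Flt1, Il1rl1 and Il5ra, and the genes said to be named after their values were seen, fall outside this rule. Some genes that this rule names are not reported here.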

Additional observations from a re-analysis of the deposited data

How the results depend on the processing

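Among the 10 genes, 2 were called higher with TMM factors, filterByExpr, a minimum of 10 counts, the older quasi-likelihood fit, DESeq2 and both limma fits, 1 with no filter on low counts, 0 when a 2-fold change was also required, and 1 to 2 without 1 library. None was called lower except 1 with DESeq2. Over all genes tested, 1261 were higher and 930 lower with DESeq2, 334 higher and 201 lower with no filter, and 578 and 63 with the 2-fold rule. Without 1 library, 479 to 948 were higher and 158 to 388 lower, and in those fits a lone library is assumed to vary like the other group. With the replicate number as a block, 2 of the 10 genes were called higher and 0 lower, among 1077 and 638 of all genes, and Cblb and Ier3 lost their calls. The animals differ between genotypes and the deviations of same-numbered libraries correlated at -0.0582, so the numbers were not read as pairs. Beside Dusp10, the calls of Dusp3, Dusp23, Gab2, Map3k1, Ptpn7, Cblb, Pebp1, Egr1, Ier3, Myc, Fgfr2 and Flt1 were lost over the 22158 genes tested without that filter, at adjusted p of 0.0506 to 0.167. Gab2, Ptpn7, Cblb, Egr1, Ier3 and Myc also lost their calls with filterByExpr, Gab2, Ptpn7, Cblb and Ier3 with the older quasi-likelihood fit, Ptpn7 and Cblb with both limma fits, Ier3 with limma without the pseudocount, and Cblb with a minimum of 10 counts. Without 1 library, log2 fold changes ranged from -0.31 to 0.19 for Dusp1, -0.15 to 0.0874 for Spry1, -0.29 to 0.13 for Spred2, -0.50 to 0.19 for Fos, -0.21 to 0.0428 for Kit, -0.39 to 0.0823 for Klf6 and -0.0866 to 0.26 for Nr4a1. The cause was not tested. Spry2, Spred1 and Spred2, which had the lowest TPM of the 10, also had the widest intervals.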

Other observations

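Beside the immediate early genes that were high in 1 library of each group, 3 genes of the same dissociation list separated the groups by more than 2-fold. Hspa1a, which encodes an inducible heat shock protein, had 3.90 and 3.34 normalized counts in WT and 20.9 and 19.0 in the KO-labelled libraries (log2 fold change 2.50). Hspa1b, its near-identical neighbour, with which it can share reads, had a log2 fold change of 2.24, so that the split between the pair is uncertain. Btg2, an antiproliferative gene, had 93.0 and 111 against 308 and 312 (log2 fold change 1.63, adjusted p = 0.000131 by edgeR's quasi-likelihood test).

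Genes of the ILC2 list were called in both directions. Of 16 such genes, Ptprc and Klrg1 were called higher and Id2, Il2ra, Arg1, Il5 and Il13 lower, all named after their values were seen. Ptprc encodes CD45, which is not confined to ILC2s. The part of other leukocytes in the higher values was not tested. The shares of all genes called higher and lower were 8.8% and 4.97%. Il13, the cytokine gene, had 31.6 and 35.2 normalized counts in WT and 11.1 and 12.9 in the KO-labelled libraries (log2 fold change -1.45, adjusted p = 0.00247 by the same test). Il1rl1, the gene of ST2, had 626 and 728 against 774 and 760 (log2 fold change 0.21, adjusted p = 0.173).

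Of the lists of other cells, 4 of 8 T cell, 3 of 6 regulatory T cell and 4 of 6 B cell genes tested were called higher and none lower. The same held for 5 of 6 neutrophil and 4 of 8 epithelial genes, beside 8.8% of all genes called higher and 4.97% lower. Of the eosinophil genes, Ccr3 and Il5ra were higher and Epx and Prg2 lower, Epx with 0 counts in both KO-labelled libraries. No mesenchymal (of 5) or mast cell and basophil gene (of 4) was called by edgeR, with 1 of each at an unadjusted p under 0.05. The regulatory T cell genes summed to 630.5 and 839 normalized counts in WT and 952 and 1077 in the KO-labelled libraries. Most of this was Ctla4 (280 and 390 against 389 and 435) and Tnfrsf18 (263 and 346 against 283 and 337), neither of them called. Foxp3, which was called, had 42.4 and 53.9 against 157 and 181. The epithelial genes summed to 421.5 and 190.5 against 536 and 1359. Among them Scgb1a1 overlapped between groups (338 and 142 against 123 and 510), and Sftpc had 24.2 and 0.57 against 253 and 537.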
